A study of Arabidopsis thaliana with 6 samples.

Results

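The HD-ZIP IV epidermis regulators are 8 Arabidopsis genes, ATML1, PDF2, ANL2, HDG1, HDG2, HDG5, HDG11 and HDG12, chosen by their identifiers out of 31608 rows in the deposited expression table. All 8 were found and all 8 entered the authors' comparison of 25434 genes. Siliques, the fruits that hold the developing seeds, were sampled 4 days after pollination from Col-0, the wild-type reference accession, and from the mee45-1 mutant, a line named for MEE45, a gene of the B3 transcription factor family. Each genotype had 3 libraries of polyA RNA, labelled with silique as the source and seed as the tissue, and no transgene or treatment is named. The design text gives mee45-1 as the mutant line and also as the title of its first library, beside mee45-2 and mee45-3, so these titles count repeats of the line and are not alleles; the group is called mee45 here. The mutant is represented by 1 allele, and the sources used here do not give its kind of lesion. Each value is an average that the authors took within a genotype, so no library can be shown on its own and no spread between libraries can be computed. MEE45 itself totalled 62 counts in Col-0 and 3 in mee45.

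HD-ZIP IV proteins are plant transcription factors that carry a homeodomain, a leucine zipper and a lipid-binding START domain, and most of the genes are transcribed in the outermost cell layer. ATML1 and PDF2 act redundantly to specify the epidermis, and embryos that lack both fail to form a proper protoderm. The proteins bind a short DNA element named the L1 box, which also lies upstream of some family genes and of genes of the cuticle, the waxy cover that the epidermis secretes. In a young fruit, epidermis covers the silique wall, the seed coat and the embryo inside each seed.

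The deposited table annotates every member as a homeobox-leucine zipper or homeodomain GLABROUS protein. In the TAIR10.1 annotation the members lie on chromosomes 1 (HDG2, HDG11, HDG12), 3 (HDG1), 4 (ATML1, PDF2, ANL2) and 5 (HDG5). ANL2, from 299261 to 304612 on chromosome 4, lies 182.2 kb from MEE45. No pair of members shares an identical stretch as long as a read of 150 bases. Over the 28 pairs of members, aligned coding bases were 61.5% to 84.2% identical, and the longest run of identical bases between any pair of representative transcripts was 34 bases. The closest pairs were ATML1 with PDF2 at 84.2%, HDG11 with HDG12 at 80.7%, ATML1 with HDG2 at 72.6% and PDF2 with HDG2 at 71.9%. An antisense long noncoding RNA of that annotation overlaps HDG2 by 1667 bases and another overlaps HDG12 by 280 bases. The counting is not stated to use strand, so reads of these genes and of their antisense partners cannot be told apart.

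Sequences upstream of the members were searched for the L1 box, as TAAATGTA or TAAATGCA on either strand. They are shown because the family binds this element and because members with and without it can be set beside the values below. Among 1000 bases before the annotated gene start, 3 of the 8 members held an L1 box, against 15.8% of 27443 protein-coding genes. Among 250 bases, 2 of 8 held one, against 4.49% of those genes. ATML1 had the thymine form with its first base 509 bases before the start, HDG2 the same form at 107 bases, and ANL2 the cytosine form on the opposite strand at 56 bases. The windows below are RefSeq TAIR10.1 sequence on the strand of the gene, 5′ to 3′, with the L1 box in capitals and 40 bases on each side. They are chr4:11554490-11554577 (plus strand) for ATML1, chr1:1518960-1519047 (minus) for HDG2 and chr4:304621-304708 (minus) for ANL2.
ATML1: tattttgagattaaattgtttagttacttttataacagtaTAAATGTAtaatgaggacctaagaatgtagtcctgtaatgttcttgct
HDG2: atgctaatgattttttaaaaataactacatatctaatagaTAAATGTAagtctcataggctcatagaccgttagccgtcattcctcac
ANL2: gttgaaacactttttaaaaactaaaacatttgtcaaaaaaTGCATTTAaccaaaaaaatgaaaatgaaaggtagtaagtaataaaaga

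The members with the largest differences between genotypes, HDG5 and HDG12, had no L1 box in the 1000 bases before the annotated start, nor did PDF2, HDG1 and HDG11. Bases after that start were not searched, so a box there would be missed. The 250 bases before HDG5 (chr5:19030594-19030843, plus strand) and before HDG12 (chr1:6165821-6166070, minus strand) are given for comparison and hold no capitals.
HDG5: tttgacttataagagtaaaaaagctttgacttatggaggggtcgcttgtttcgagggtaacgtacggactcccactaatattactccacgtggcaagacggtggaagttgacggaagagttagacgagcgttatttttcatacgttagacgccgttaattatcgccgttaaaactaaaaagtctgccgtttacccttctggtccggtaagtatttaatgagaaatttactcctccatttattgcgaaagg
HDG12: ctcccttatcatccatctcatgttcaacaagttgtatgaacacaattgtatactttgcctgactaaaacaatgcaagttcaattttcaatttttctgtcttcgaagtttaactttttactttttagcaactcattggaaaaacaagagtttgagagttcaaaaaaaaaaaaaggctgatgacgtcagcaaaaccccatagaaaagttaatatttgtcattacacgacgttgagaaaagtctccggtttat

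**Figure D1:**
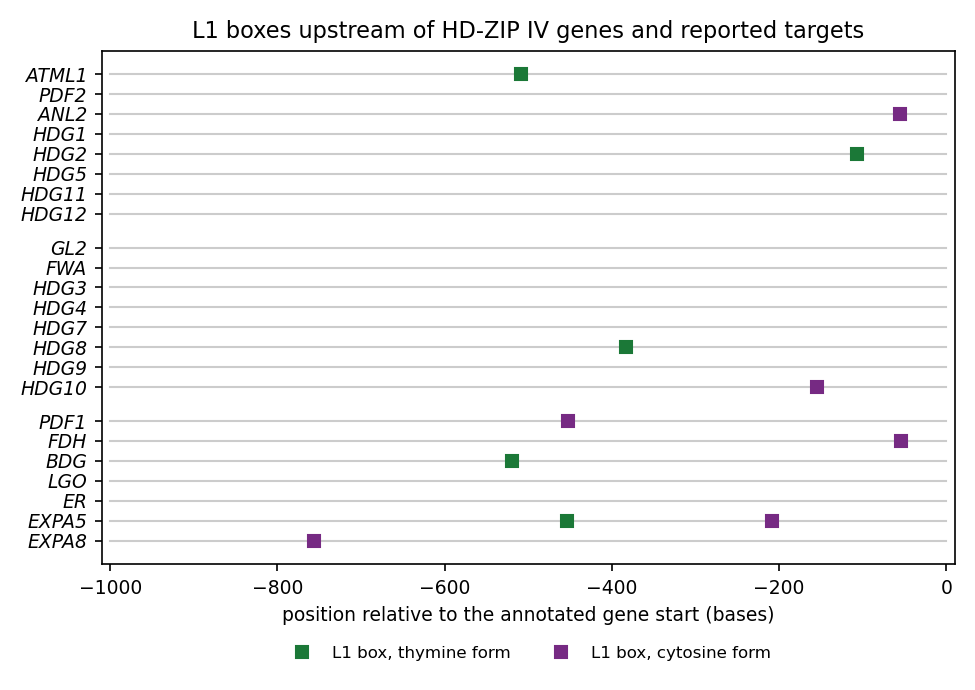
Positions of L1 boxes in the 1000 bases before the annotated start of 8 HD-ZIP IV regulators, 8 other family genes and 7 reported targets. Each square is the first base of a box, coloured by its thymine or cytosine form; 3 of the 8 regulators, 2 of the 8 other family genes and 5 of the 7 targets hold at least 1 box.

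ATML1 was the most abundant member in both genotypes, and 4 members held most of the summed level of the 8 genes. ATML1 had a mean of 69 FPKM (fragments scaled by transcript length and by sequencing depth) in Col-0 and 73.2 in mee45, above the level of 92% of all genes tested in Col-0. PDF2, its closest relative, had 34.2 and 35.5 FPKM. ANL2, which promotes anthocyanin accumulation beneath the leaf epidermis, had 43.7 and 37.4 FPKM. HDG2, which promotes stomatal differentiation, had 38.9 and 30.8 FPKM. ATML1, PDF2, ANL2 and HDG2 together held 85.9% of the members' summed FPKM in Col-0 and 88.1% in mee45.

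The other members were scarcer. HDG1, which acts with the protein CFL1 in cuticle formation, had 11.8 FPKM in Col-0 and 13.4 in mee45. HDG5, known for a role in floral organ development together with PDF2, had 9.77 and 4.75 FPKM. HDG12 had 6.38 FPKM in Col-0 and 3.45 in mee45, and HDG11, with which it acts in trichome branching, had 2.53 and 2.27. The highest member exceeded the lowest by 27.3 times in Col-0 and by 32.2 times in mee45. The order of levels was the same in both genotypes except that HDG2 stood above PDF2 in Col-0 and below it in mee45. Whether neighbours in this order differ beyond the spread between libraries cannot be said from genotype means.

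**Figure D2:**
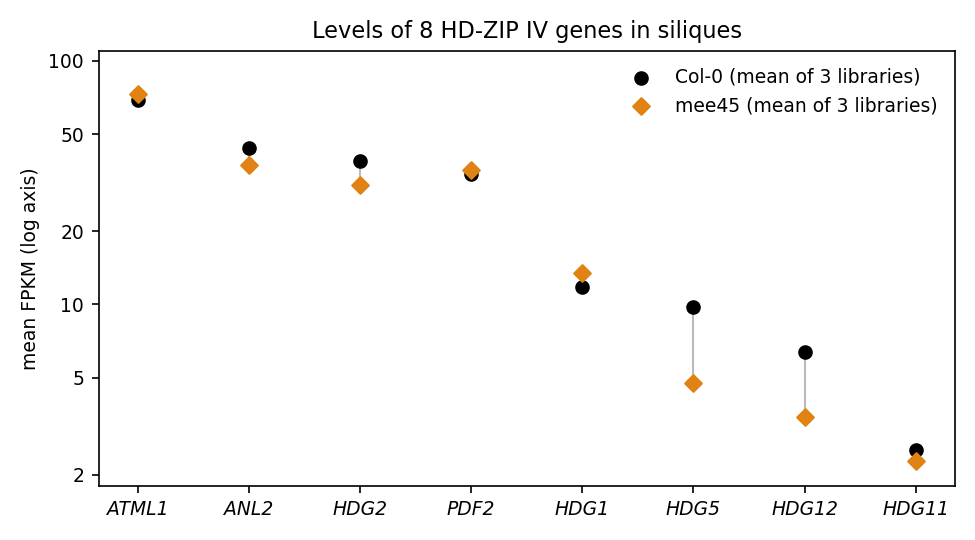
Mean FPKM (log axis) of the 8 HD-ZIP IV regulators in Col-0 (circles) and mee45 (diamonds), each point the authors' mean of 3 libraries without an error bar. ATML1 is highest and HDG11 lowest in both genotypes, and the points of HDG5 and HDG12 lie farthest apart.

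Of the 8 members, 3 fell in mee45, 0 rose and 5 were not called, where a call means an adjusted p under 0.05 in the authors' deposited table, with edgeR named among the tools in the processing notes. Over all genes tested, 9.15% fell and 6.67% rose, 15.8% in either direction. A count of 0 out of 8 higher is near the share that rose. All 8 members had a mean count of at least 10. With p adjusted over the 21045 tested genes at that count in either genotype, 2382 fell and 1736 rose. At an unadjusted p under 0.05, 4 members were lower and 0 higher, against 13.5% and 11.4% of all genes. At an adjusted p under 0.01, 2 members were lower against 6.45% of all genes, and with a change of at least 1.5-fold 2 were lower against 6.88%. The log2 ratio, mee45 over Col-0, was taken of mean FPKM, and its median was -0.19 for the members and 0.00 for all genes with a ratio. Differences between members in their response could not be tested without values per library.

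HDG5 (AT5G46880) changed most. Its mean count was 591.3 in Col-0 and 295.3 in mee45, a level of 48.6% of Col-0 by FPKM. Its log2 ratio was -1.04 (adjusted p = 2.98e-05, authors' deposited table). At equal total counts the exact 95% counting interval of the log2 ratio ran from -1.14 to -0.90. Such intervals cover counting error only and leave out the spread between libraries. Reads without molecular identifiers are not independent molecules, so even the counting error may be understated. Among genes with a mean count of at least 10 in both genotypes, 4.01% had a lower log2 ratio than HDG5. HDG4, the family gene closest to HDG5 at 76.3% identity, had 0 summed counts in Col-0 and 1 in mee45; its longest run shared with HDG5 is 29 bases.

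HDG12 (AT1G17920) fell to a similar degree, from a mean count of 352.7 to 195.3. Its log2 ratio was -0.89 and its adjusted p was 0.000737 in the authors' deposited table, with a counting interval from -1.02 to -0.73. Its relative HDG11 (AT1G73360) had mean counts of 157.3 and 143.0 and a log2 ratio of -0.15, and did not pass the test (adjusted p = 0.791, authors' deposited table). HDG12 stood 2.52 times above HDG11 in FPKM in Col-0 and 1.52 times above it in mee45. The counting interval of HDG11 ran from -0.35 to 0.03, above the whole interval of HDG12. Both intervals leave out the spread between libraries, so a difference in response between these genes was not tested.

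HDG2 (AT1G05230) fell less, from a mean count of 2225.0 to 1799.0, or to 79.1% of its Col-0 FPKM. Its log2 ratio was -0.34 (adjusted p = 0.0336, authors' deposited table). HDG2 did not stay past an adjusted p of 0.01. Its summed counts are not all whole within 0.03 counts, so they include reads shared out by estimation.

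The remaining members did not pass the test. ATML1 (AT4G21750) had mean counts of 4423.3 and 4756.0 and a log2 ratio of 0.08 (adjusted p = 0.778, authors' deposited table). PDF2 (AT4G04890) had 2135.3 and 2248.7 and a log2 ratio of 0.05 (adjusted p = 0.902 there). ATML1 thus stood 2.01 times above PDF2 in FPKM in Col-0 and 2.06 times in mee45. HDG1 (AT3G61150) had mean counts of 676.7 and 780.0, a log2 ratio of 0.19 and an adjusted p of 0.359. ANL2 (AT4G00730) had 2827.3 and 2457.3 and a log2 ratio of -0.22, and in the authors' deposited table its p was 0.0449 before adjustment and 0.186 after it. ATML1 exceeded HDG5 by 7.06 times in Col-0 and by 15.4 times in mee45.

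**Figure D3:**
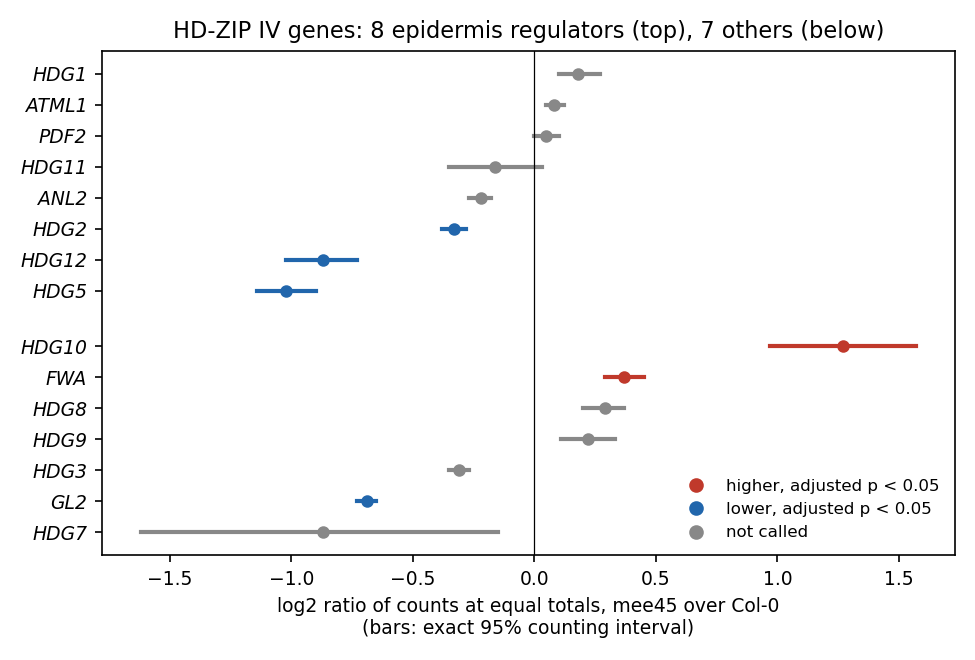
Log2 ratio of counts at equal totals, mee45 over Col-0, for the 8 HD-ZIP IV regulators and 7 other family genes with more than 3 summed counts in both genotypes; bars are exact 95% counting intervals, which do not include the spread between libraries. HDG5, HDG12 and HDG2 lie below 0 and are called lower, whereas HDG10 and FWA among the other genes are called higher and GL2 lower.

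The family holds 8 further genes, among which 2 rose, 1 fell and 5 had no call, against 6.67% rising and 9.15% falling over all genes; 1 of 8 lower is near the latter share. GL2 (AT1G79840), which controls trichomes, root hairs and seed coat mucilage, fell from a mean of 90.5 to 56 FPKM (log2 ratio -0.69, adjusted p = 1.78e-07, authors' deposited table). FWA (AT4G25530), an imprinted gene expressed from the maternal copy in the endosperm, the nutritive tissue of the seed, rose from 15.2 to 19.8 FPKM (log2 ratio 0.38, adjusted p = 0.0413 there). HDG10 (AT1G34650) rose from 0.967 to 2.35 FPKM, with 130 summed counts in Col-0, 317 in mee45 and a log2 ratio of 1.28 (adjusted p = 7.52e-05, authors' deposited table). HDG10 and HDG9 are 82.1% identical, the closest pair outside the 8 regulators, and HDG9 had a log2 ratio of 0.22 without passing the test (adjusted p = 0.45). HDG3 and HDG8 had ratios of -0.31 and 0.30 and were not called. HDG7, overlapped by 3 antisense protein-coding genes, had 47 and 26 summed counts and was not called either. GL2 is overlapped by an antisense protein-coding gene over 198 bases and by a long noncoding RNA on its own strand over 155 bases. The summed counts of GL2 are not all whole within 0.03 counts, so they include reads shared out by estimation. Of the genes that rose, HDG10 holds an L1 box of the cytosine form at 155 bases before its start (chr1:12692800-12692887, plus strand), shown for comparison with the members.
HDG10: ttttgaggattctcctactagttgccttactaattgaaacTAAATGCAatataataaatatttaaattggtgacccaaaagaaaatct

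Signalling at the embryo surface, with its receptors, peptide and proteases and the endosperm factors ZOU and ICE1, was covered by a list of 9 genes, of which 4 fell, 0 rose and 5 were not called, against 9.15% falling and 6.67% rising over all genes. At an unadjusted p under 0.05 in the same table, 1 was higher, against 11.4% of all genes. ICE1 (AT3G26744), a basic helix-loop-helix factor that works with ZOU in the endosperm, fell from a mean of 112 to 71.1 FPKM, a log2 ratio of -0.65 (adjusted p = 0.000197, authors' deposited table). ZOU (AT1G49770) and ALE1 (AT1G62340), a subtilisin-like protease of embryo cuticle formation, had ratios of -0.93 and -0.82. GSO1 (AT4G20140), a receptor kinase for the surface peptide TWS1, fell from 2.85 to 1.6 FPKM, a log2 ratio of -0.84 (adjusted p = 0.0122 there). Its redundant partner GSO2 had 7.17 and 7.39 FPKM and a log2 ratio of 0.04, and TWS1 had 0.05. ACR4, a receptor kinase of the outer layer, had 8.7 and 11 FPKM and did not pass the test (adjusted p = 0.0699). DEK1, the calpain needed for epidermal fate, had a ratio of 0.12. The list's median was 0.04.

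Genes reported in other work as targets of these factors gave the highest median of the epidermal lists, 0.39, with 4 of 7 higher, 0 lower and 3 without a call, against 6.67% higher and 9.15% lower over all genes. At an adjusted p under 0.01 the higher count was 2, against 4.24% of all genes, and with at least 1.5-fold it was 2, against 4.02%; BDG and FDH were lost under both. At an unadjusted p under 0.05, 5 were higher and 0 lower, against 11.4% and 13.5%. EXPA8 (AT2G40610), an expansin reported downstream of ATML1 and PDF2 in germination, rose from a mean of 27.1 to 95.9 FPKM. Its log2 ratio was 1.82 (adjusted p = 1.16e-09, authors' deposited table). EXPA5 (AT3G29030), a cell wall gene reported downstream of HDG11, had 23.6 and 43 FPKM and rose by 0.86 on the log2 scale. BDG (AT1G64670) and FDH (AT2G26250), cuticle genes reported to respond to HDG1 and CFL1, rose by 0.45 and 0.32, FDH from a mean of 240 to 299 FPKM. Their adjusted p-values in the authors' deposited table were 1.32e-08 for EXPA5, 0.0103 for BDG and 0.0362 for FDH. PDF1, whose outer-layer transcription depends on its L1 box, had 69.8 and 56.9 FPKM and was not called (adjusted p = 0.471). LGO, a cell cycle inhibitor that acts with ATML1 in giant cells of the sepal, had a ratio of 0.39 and was not called (adjusted p = 0.0886). ER, the ERECTA receptor kinase gene reported downstream of HDG11, had a ratio of 0.07.

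An L1 box lay in the 1000 bases upstream of 5 of these 7 targets, among them all 4 that rose and PDF1, which was not called. The share over protein-coding genes was 15.8%. In the other lists, 2 of 9 signalling, 4 of 10 cuticle, 5 of 11 stomatal and 0 of 10 hair patterning genes held one. Of the genes called higher in those lists, only MYB94 held one. Whether a box goes with a rise was not tested. Some of the 7 targets were first studied for this element, so their count is no independent evidence. The boxes of FDH (chr2:11173285-11173372, minus strand, 54 bases before the start) and EXPA8 (chr2:16951414-16951501, minus strand, 756 bases before the start) are printed as the nearest and the farthest of the group.
FDH: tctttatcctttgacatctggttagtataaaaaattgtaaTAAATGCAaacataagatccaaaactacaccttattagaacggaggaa
EXPA8: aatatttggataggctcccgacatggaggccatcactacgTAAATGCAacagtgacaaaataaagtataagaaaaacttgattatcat

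Among regulators of the cuticle, both MIXTA-like MYB genes rose, 2.38-fold for MYB106 and 2.02-fold for MYB16 by mean FPKM. Of 10 genes, 4 rose, 1 fell and 5 had no call, against 6.67% and 9.15% over all genes. The lower count was 0 at an adjusted p under 0.01 and with at least 1.5-fold, and 3 at an unadjusted p under 0.05. The higher count was 3, 3 and 4 under these rules. Over all genes, 6.45%, 6.88% and 13.5% were lower under the same rules, and 4.24%, 4.02% and 11.4% were higher. MYB106 (AT3G01140) and MYB16 (AT5G15310), related factors that shape epidermal cells and switch on cuticle genes, rose by 1.25 and 1.01 on the log2 scale. MYB106 went from a mean count of 108.3 to 258.3 and MYB16 from 380.0 to 767.3, with adjusted p-values of 2.41e-07 and 4.38e-07 in the authors' deposited table. SHN3 (AT5G25390), an activator of cutin synthesis, rose from 34.8 to 54.6 FPKM (log2 ratio 0.65, adjusted p = 0.00285 there). Its relatives SHN1 and SHN2 had at most 3 summed counts in either genotype. DEWAX (AT5G61590), a repressor of wax genes, fell with a log2 ratio of -0.51 (adjusted p = 0.0283). MYB94, a wax activator named beyond the naming rule after its value was seen, rose by 0.32 (adjusted p = 0.0439, authors' deposited table). CFL1, the partner of HDG1, had a ratio of -0.63 and was not called (adjusted p = 0.0858).

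Stomatal and hair genes were called in shares near those of all genes, of which 6.67% rose and 9.15% fell. In the stomatal lineage, 1 of 11 rose, 1 fell and 9 were not called. POLAR (AT4G31805), which marks asymmetric divisions, fell from 60 summed counts to 6 (log2 ratio -3.41, adjusted p = 0.00015, authors' deposited table). STOMAGEN (AT4G12970), a peptide that promotes stomata, rose from 84 summed counts to 166 (log2 ratio 0.97, adjusted p = 0.0188 there). The master regulators SPCH and MUTE had at most 24 summed counts in either genotype, while FAMA had mean counts of 417.7 and 482.7. Among 10 hair patterning genes 1 rose and 0 fell (0 also at an unadjusted p under 0.05), with 8 tested genes uncalled and GL1 at 0 counts in both genotypes. The riser was EGL3 (AT1G63650), from 7.8 to 11 FPKM, with a log2 ratio of 0.50 (adjusted p = 0.00631, authors' deposited table). STOMAGEN did not stay past an adjusted p of 0.01, and EGL3 did not reach 1.5-fold. TTG1, MYB5 and TTG2, which act with GL2 in the seed coat, had ratios of -0.02, -0.02 and 0.07.

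**Figure D4:**
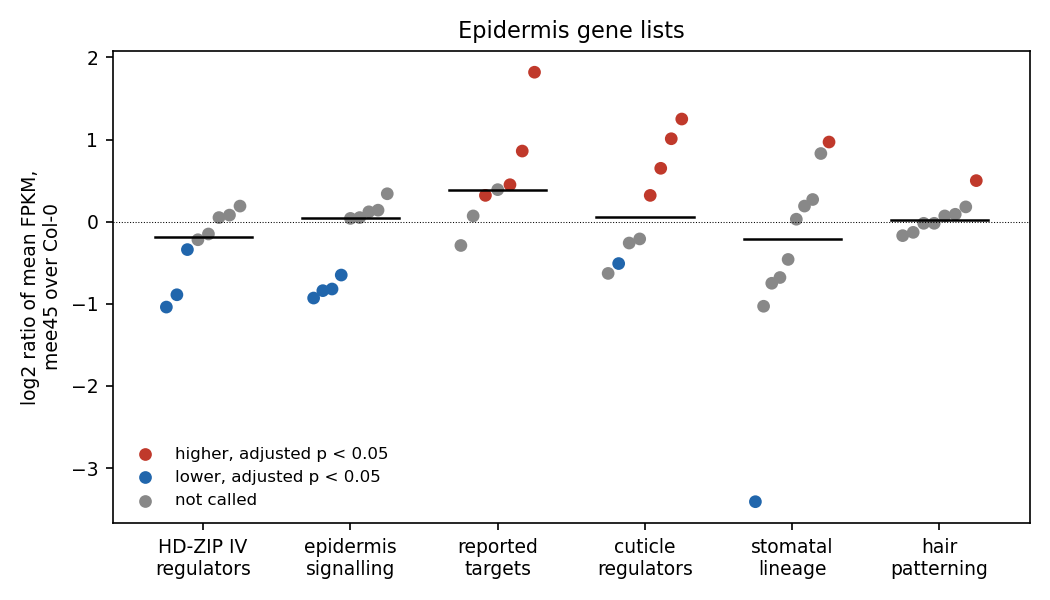
Log2 ratio of mean FPKM (mee45 to Col-0) for genes of 6 lists with more than 3 summed counts in both genotypes; each point is a gene, coloured by the authors' adjusted p, and black bars are list medians. The reported targets have the highest median, 0.39, and the HD-ZIP IV regulators have 3 points called lower and none called higher.

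In a whole silique, fewer cells of a type and less RNA per cell cannot be told apart, and markers of several cell types differed between the genotypes. Mean depth per library was 20242476 counts for Col-0 and 20530953 for mee45. Over all genes tested, 6.67% rose and 9.15% fell, the shares to set beside each marker count below. Of 6 embryo markers 3 fell and 1 rose. Their summed level was 86.6 FPKM in Col-0 and 71.1 in mee45, of which LEC1 held 57.1 and 40.6. LEC1, WOX8 and WOX9 fell and STM rose. Of 6 endosperm markers 3 rose (AGL62, PHE1 and MINI3) and all 6 had ratios above 0, with summed levels of 23 and 35.4 FPKM. IKU2 among them had only 4 and 13 summed counts. The endosperm factors ZOU and ICE1, in the signalling list above, fell, with ratios of -0.93 and -0.65. Of 6 seed coat markers 1 rose (TT12) and 2 fell (TT10 and MUM4), with sums of 1092.1 and 1002.3 FPKM. TT10 had 274 and 89.7 FPKM and MUM4 139 and 61.9. The other 4 markers had ratios above 0, and the median log2 ratio of the seed coat list was 0.24. Of 6 silique wall markers 2 rose (SHP1 and IND) and 1 fell (SHP2), with sums of 395.1 and 410.7 FPKM, and CRABS CLAW had at most 2 summed counts. Of 5 pollen markers 1 fell (VEX1, from 11.3 to 2.82 FPKM) and DUO1 had 0 counts in both genotypes. Their sums were 55.1 and 70.5 FPKM, a difference carried by VGD1, which had 43.2 and 67.1 FPKM and was not called (adjusted p = 0.21, authors' deposited table), while the list's median log2 ratio was -0.50. The part of these shifts in the changes of HDG5, HDG12 and HDG2 was not tested.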

How the data were processed

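PolyA RNA of 6 silique libraries, 3 of Col-0 and 3 of the mee45-1 line, was sequenced as 150-base paired ends, per the labels' protocols. Per the submitters' processing notes the build was TAIR10 and the tools were edgeR, RSEM, Cufflinks, TopHat2 2.0.3.12, Bowtie2 2.2.8 and fastp 0.18.0; roles are not stated. The deposited estimated counts and the deposited FPKM values are the authors' means per genotype: multiplied by 3, 95% of Col-0 and 95.1% of mee45 counts above 0 are whole within 0.03. The authors' deposited table of the comparison holds a log2 fold change, a p-value and its adjusted value for each of 25434 genes; the adjusted p equals a Benjamini-Hochberg adjustment over them. No new test between genotypes could be made, so calls are the authors' adjusted p under 0.05 and no p is adjusted over a list. If the repeats were not separate plants, p-values measure only spread between libraries, which may be technical; the labels mention both 3 repeats and duplicate collection.

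Log2 ratios use mean FPKM and need more than 3 summed counts in both genotypes. Counting intervals are exact 95% binomial intervals of summed counts, rounded to whole numbers, at equal totals (scipy 1.17.1). On Poisson counts simulated for 1000 genes, without any spread between libraries, 96.2% of intervals covered the true value. Coverage near 95% follows from that setting, so it checks the arithmetic only and not the spread between libraries. Members and lists were chosen with earlier results of these data known. Named genes are the members, the other family genes, MEE45, and per list up to 4 called genes in order of p, or the first gene in that order if no call was made; other list genes were named after their values were seen. Genes of like pattern were not sought, since genotype means give no pattern. Sequences are RefSeq TAIR10.1, in which all 16 family identifiers were found; identity is over aligned bases of the longest coding sequences (Biopython 1.88).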

Additional observations from a re-analysis of the deposited data

How the results depend on the processing

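No paired analysis was possible because the values used are averages within a genotype. Fits without each replicate in turn, with a replicate block and with DESeq2 were not run for the same reason. Of the 8 members, 3 were lower at an adjusted p under 0.05. The count was 2 (HDG5 and HDG12) at an adjusted p under 0.01 or with a change of at least 1.5-fold, 4 at an unadjusted p under 0.05, which adds ANL2, and 3 when p was adjusted over genes with a mean count of at least 10. None of these settings called a member higher, where 6.67% of all genes were higher at an adjusted p under 0.05. Of the 8 other family genes, 1 was higher at an adjusted p under 0.01 and 1 with at least 1.5-fold, against 2, and 2 were lower at an unadjusted p under 0.05, against 1. The 5 epidermal lists hold 47 genes. Of these, 6 were higher at an adjusted p under 0.01 and 6 with at least 1.5-fold, against 10. Their lower counts under these rules were 4 and 5, against 6. Over all genes, 1078, 1023 and 2889 were higher at an adjusted p under 0.01, with at least 1.5-fold and at an unadjusted p under 0.05, against 1696. These are 4.24%, 4.02% and 11.4% of the genes tested, against 6.67%. Under the same rules 6.45%, 6.88% and 13.5% of genes tested were lower, against 9.15%. Such shares are the ones to set beside the counts above. Counts in place of FPKM, at equal totals or at a median ratio of 1, moved the 58 log2 ratios examined by at most 0.10 and 0.11. Both maxima were those of MEE45, which was included in this check only, although it had 3 summed counts in mee45. The count scalings differ from each other by a shift common to all genes, by construction. Pseudocounts shrink low genes by construction: with log2(FPKM + 1), HDG10 was at 0.77, GSO1 at -0.57 and POLAR at -0.68. Depth limits HDG4, SHN1, SHN2, MUTE, GL1 and MYB23, which had at most 6 summed counts in either genotype, so no fold is given for them.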

Other observations

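Genes that the deposited table annotates to plant epidermis development, a set chosen after values were seen, were called in shares close to those of all genes tested (6.67% higher and 9.15% lower). Of 194 tested genes, which include 4 of the 8 HD-ZIP IV regulators, 12 rose (6.19%) and 20 fell (10.3%), with a median log2 ratio of 0.01. Of 14 tested genes of cuticle development, a set also chosen after values were seen, 3 rose and 1 fell, with a median of 0.20.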
